A study of Homo sapiens with 15 samples.

Results

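Matrix metalloproteinases (MMPs) are zinc-dependent endopeptidases that are secreted as inactive proenzymes, cut into their active form outside the cell or on its surface, and held in check by the tissue inhibitors of metalloproteinases (TIMPs). The stromelysins MMP3 and MMP10 degrade proteoglycans, laminin and fibronectin and activate other proenzymes of the family, matrilysin (MMP7) is a small enzyme of epithelial cells that lacks the hemopexin domain and sheds surface proteins such as E-cadherin, and collagenase-3 (MMP13) cuts fibrillar collagen. Stromelysin-3 (MMP11) stands apart, because furin already activates it inside the secretory pathway and it degrades the classical matrix proteins poorly. In breast carcinoma MMP11 is known mainly from the fibroblasts around the tumor, and the other genes are known to respond to inflammatory cytokines and growth factors.

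These 5 genes were chosen as the MMPs with a well on a Tumor Metastasis RT2 Profiler PCR array other than the gelatinases MMP2 and MMP9, and they are 5 of its 84 target genes. The array is a quantitative PCR plate of 96 wells, which also holds 5 housekeeping genes and 7 control wells. The study asked whether medium conditioned by macrophages changes genes of metastasis in breast cancer cells. RNA came from MDA-MB-231 and MDA-MB-468, both established lines of triple-negative breast cancer, so each line stands for 1 tumor grown in culture. By the labels, 3 samples of MDA-MB-231 and 4 samples of MDA-MB-468 were exposed for 24 h to conditioned medium (CM) of human monocyte-derived macrophages (MDM) that had been primed with supernatant of these cancer cells, and 4 samples of each line were left unstimulated. For this incubation the study's figure legend gives a shorter time than the labels do. The CM can carry over factors of the cancer cells used for priming, and no group received medium of unprimed MDM.

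The values are fold changes, each the ratio of CM to unstimulated cells in 1 comparison, with 3 comparisons per line that are named here by their unstimulated control (2, 3 or 4). Within each comparison it was divided by the value of a reference gene, ACTB for MDA-MB-231 and RPLP0 for MDA-MB-468. A gene was called raised where the geometric mean was over 2 and each comparison was above 1, and lowered where the mean was under 0.5 and each comparison was below 1. By the column headers, the comparisons with controls 3 and 4 of each line both use CM sample 3, so the 3 comparisons may rest on 2 CM samples and n = 3 counts comparisons, not independent samples. No test was run, and their range and SD are given as the spread. Levels of the transcripts are not known from ratios, and the column headers of MDA-MB-468 list a control from MDA-MB-231, so the unstimulated samples behind the values of MDA-MB-468 are not settled. If they were MDA-MB-231 cells, a response to CM and a difference between the cell lines cannot be told apart in those values, nor in any contrast of the lines given here.

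In MDA-MB-231, 4 of the 5 MMP genes were raised (MMP3, MMP7, MMP10 and MMP13), and 31% of the 84 target genes were. Scaled to the reverse transcription control wells, 2 of the 5 (MMP10 and MMP13) and 16 of the target genes were raised in MDA-MB-231. In MDA-MB-468, 2 of the 5 were raised (MMP3 and MMP13), where 27.4% of the target genes were. None of the 5 was lowered in either line under this rule, and of the target genes 3.57% were lowered in MDA-MB-231 and likewise 3.57% in MDA-MB-468. The latter, 3 genes, became 9 without control 2, 10 without control 3, 11 when scaled to all 5 housekeeping genes and 12 when scaled to the reverse transcription control wells. When each comparison had to exceed 2, 3 of the 5 were raised in MDA-MB-231, where 23.8% of the target genes were, and the same 2 in MDA-MB-468, where 22.6% were. MMP7 was the member lost under the stricter rule.

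**Figure D1:**
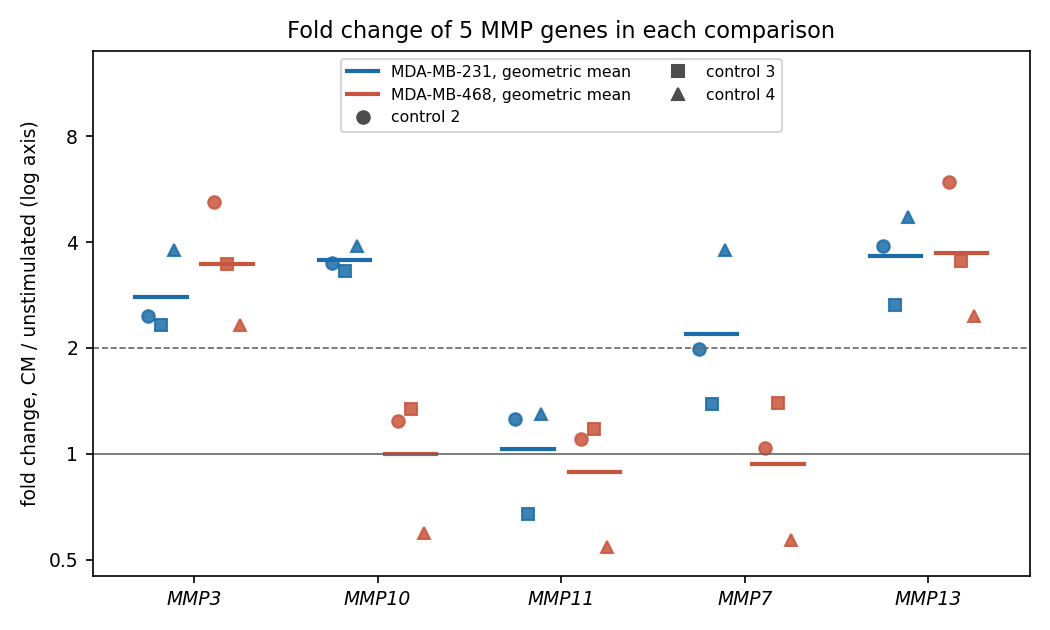
Fold change of CM over unstimulated cells (log axis) for each MMP gene, with 1 point per comparison, the shape giving the control, the color the line and the bar the geometric mean of 3 comparisons; the dashed line marks 2. MMP3 and MMP13 lie above 2 in all 6 comparisons, MMP10 lies above 2 in MDA-MB-231 alone, and MMP11 lies around 1.

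MMP7, MMP10, MMP3 and MMP13 lie on chromosome 11 and MMP11 on chromosome 22. In the order of RefSeq's protein-coding genes, 9 genes run from MMP7 to MMP13, and the 5 others, MMP20, MMP27, MMP8, MMP1 and MMP12, have no well on the array. RefSeq promoter windows were matched by symbol for 3 of the 5 members, and the last 150 bases before the start are shown for these 3. They are MMP7 and MMP10, which were raised in MDA-MB-231 alone, and MMP11, which was raised in neither line, so the windows hold no comparison with MMP3 and MMP13, the genes raised in both. Capitals mark 3 motifs searched on both strands, AP-1 (TGANTCA), the core of a TATA box (TATAAA) and PEA3 (AGGAAG, which reads CTTCCT on the other strand). The windows are chr11:102530748-102530897 on the minus strand, chr11:102780629-102780778 on the minus strand and chr22:23772699-23772848 on the plus strand of GRCh38.p14.
MMP7: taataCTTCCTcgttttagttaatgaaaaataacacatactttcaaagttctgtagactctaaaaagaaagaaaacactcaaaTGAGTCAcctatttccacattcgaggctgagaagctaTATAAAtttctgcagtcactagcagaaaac
MMP10: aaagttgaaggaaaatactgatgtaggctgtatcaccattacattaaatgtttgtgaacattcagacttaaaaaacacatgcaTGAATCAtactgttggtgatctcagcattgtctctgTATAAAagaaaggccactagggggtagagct
MMP11: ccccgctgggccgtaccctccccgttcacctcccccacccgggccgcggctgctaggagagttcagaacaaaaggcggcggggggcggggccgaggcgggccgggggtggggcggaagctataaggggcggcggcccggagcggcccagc
The AP-1 letters begin 67 bases before the start in MMP7 and also 67 bases before it in MMP10, as TGAGTCA and TGAATCA, and the TATA letters begin 30 and 31 bases before it. Over the 250 bases before the start, 6.57% of 35116 promoters hold the AP-1 letters, 10.7% hold the TATA letters and 28.7% hold the PEA3 letters. PEA3 was found at 2 places in MMP7, 1 of them in the stretch shown, and at none in the windows of MMP10 and MMP11. The window of MMP11 holds none of the 3 motifs, and its 250 bases are 73.2% G and C, against 33.6% in MMP7 and 34.4% in MMP10. These matches describe the letters of the windows, and no binding was measured.

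MMP3 (NCBI Gene 4314), stromelysin-1, had fold changes of 2.47, 2.33 and 3.80 in MDA-MB-231 and of 5.20, 3.45 and 2.33 in MDA-MB-468, in the order of controls 2, 3 and 4. All 6 lay above 2, with the highest value of MDA-MB-231 in the comparison with control 4 and the lowest value of MDA-MB-468 there. The geometric mean was 2.79 in MDA-MB-231 (mean log2 fold change 1.48 ± 0.39, SD, n = 3 comparisons) and 3.47 in MDA-MB-468 (1.80 ± 0.58, SD, n = 3). In MDA-MB-231 it was 2.12 when scaled to the positive PCR control wells. Scaled to the reverse transcription control wells it was 1.98, and MMP3 was not called raised. The ranges of the lines overlapped, and the means were 0.31 apart on the log2 scale, less than the SD of either line. They did not overlap when scaled to the reverse transcription control wells or the positive PCR control wells. There the mean of MDA-MB-468 lay higher by 0.56 and 0.72 on the log2 scale. Among the 84 target genes MMP3 ranked between 13 and 20 from the top in every comparison.

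MMP10 (NCBI Gene 4319), stromelysin-2, is a close relative of MMP3 in sequence and substrates. Its fold changes were 3.49, 3.32 and 3.90 in MDA-MB-231 and 1.24, 1.34 and 0.597 in MDA-MB-468 with controls 2, 3 and 4. MDA-MB-231 was high in each comparison and with the narrowest spread of the 5 members, while MDA-MB-468 lay near 1 with controls 2 and 3 and below 1 with control 4. The geometric mean was 3.56 in MDA-MB-231 (log2 1.83 ± 0.12, SD, n = 3 comparisons) and 0.998 in MDA-MB-468 (log2 0.00 ± 0.64), which with the 4 other housekeeping references lay between 0.848 and 1.16. The lowest comparison of MDA-MB-231 lay above the highest of MDA-MB-468, and the means differed 3.57-fold. MMP10 was the 1 member without overlap between the lines, and in 8 of 14 alternative settings it was 1 of 2 or 3 such members. Of the target genes, 15.5% lay higher in MDA-MB-231 without overlap, and 8.33% lay higher in MDA-MB-468. Together these are 20 genes, a count that becomes 14 when scaled to GAPDH, 33 when scaled to all 5 housekeeping genes, 35 when scaled to the median target gene, and 39 without control 4 of MDA-MB-468. MMP10 ranked 10 or 11 among the 84 genes in the comparisons of MDA-MB-231 and between 31 and 39 in those of MDA-MB-468. The difference between the lines was not tested.

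MMP11 (NCBI Gene 4320), stromelysin-3, had fold changes of 1.26, 0.676 and 1.30 in MDA-MB-231 and of 1.10, 1.18 and 0.543 in MDA-MB-468 with controls 2, 3 and 4. In each line 2 comparisons lay above 1 and 1 lay below it, control 3 in MDA-MB-231 and control 4 in MDA-MB-468. The geometric mean was 1.03 in MDA-MB-231 (log2 0.05 ± 0.53, SD, n = 3 comparisons) and 0.890 in MDA-MB-468 (log2 -0.17 ± 0.62), both within the spread around no change. With the 4 other housekeeping references the mean of MMP11 in MDA-MB-468 lay between 0.756 and 1.04, so its direction changes with the reference. The lines overlapped, but not when control 3 of MDA-MB-231 was left out. In MDA-MB-231 with control 3, MMP11 ranked 80 of the 84 target genes, and in the other 5 comparisons it ranked between 41 and 47.

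MMP7 (NCBI Gene 4316), matrilysin, had fold changes of 1.99, 1.39 and 3.79 in MDA-MB-231 and of 1.04, 1.39 and 0.568 in MDA-MB-468 with controls 2, 3 and 4. In MDA-MB-231 only the comparison with control 4 was over 2, and it was the highest of the 6. The geometric mean was 2.18 in MDA-MB-231 (log2 1.13 ± 0.73, SD, n = 3 comparisons), and without control 4 it was 1.66, under the threshold. It was also under the threshold when scaled to the reverse transcription control wells (1.55), the median target gene (1.85) or the positive PCR control wells (1.65). In MDA-MB-468 the geometric mean was 0.935 (log2 -0.10 ± 0.66), and between 0.795 and 1.09 with the 4 other housekeeping references. The lines met at 1 point, the lowest value of MDA-MB-231 (1.387) lying under the highest of MDA-MB-468 (1.392), so whether MMP7 overlaps between the lines turns on the reference gene. The mean log2 fold change in MDA-MB-468 minus that in MDA-MB-231 was -1.22, and this difference was not tested.

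MMP13 (NCBI Gene 4322), collagenase-3, had fold changes of 3.89, 2.64 and 4.70 in MDA-MB-231 and of 5.92, 3.52 and 2.47 in MDA-MB-468 with controls 2, 3 and 4. Every comparison was above 2. The geometric mean was 3.64 in MDA-MB-231 (log2 1.86 ± 0.42, SD, n = 3 comparisons) and 3.72 in MDA-MB-468 (log2 1.89 ± 0.63). The lines overlapped, and their means were 0.03 apart on the log2 scale under the main reference genes, which differ between the lines. Over the 14 alternative settings the mean of MDA-MB-468 minus that of MDA-MB-231 lay between -0.31 and 0.44, and the lines overlapped in all 14. By its mean, MMP13 ranked 8 of the 84 target genes in MDA-MB-231, while it ranked 16 in MDA-MB-468.

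In MDA-MB-231 the order of the geometric means was MMP13 (3.64), MMP10 (3.56), MMP3 (2.79), MMP7 (2.18) and MMP11 (1.03), in which the ranges of MMP13, MMP10, MMP3 and MMP7 overlapped and MMP11 lay below every comparison of the other members. In MDA-MB-468 the order was MMP13 (3.72), MMP3 (3.47), MMP10 (0.998), MMP7 (0.935) and MMP11 (0.890). There the lowest comparison of MMP3 (2.33) lay above the highest of MMP10, MMP7 and MMP11 (1.39).

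**Figure D2:**
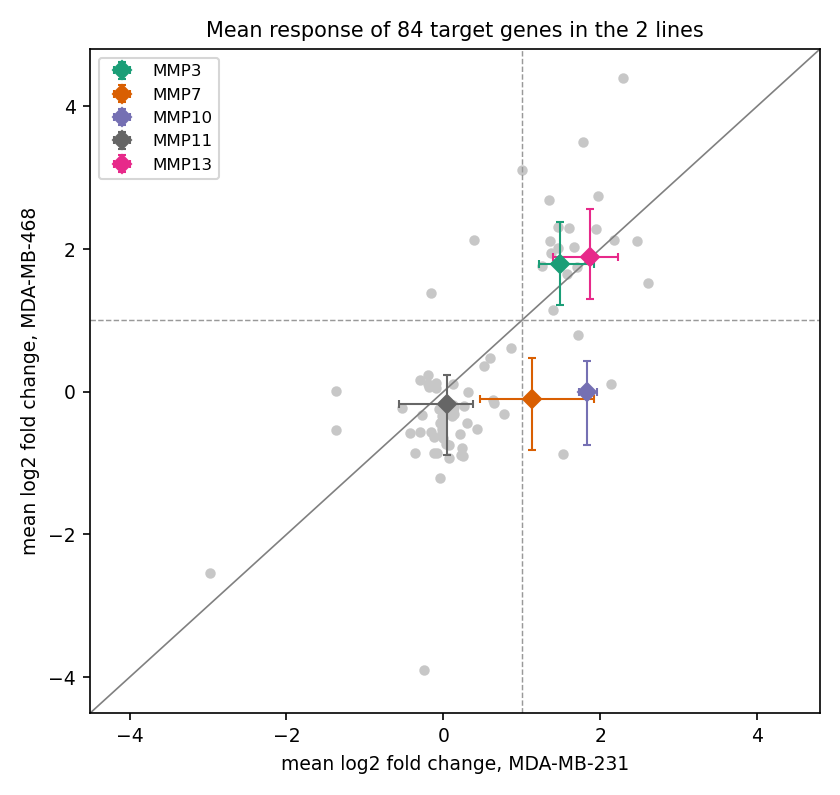
Mean log2 fold change of the 84 target genes (gray points) in MDA-MB-231 (x axis) and MDA-MB-468 (y axis), with the MMP genes in color and bars from the lowest to the highest of 3 comparisons; dashed lines mark a fold change of 2 and the solid line marks equal means. MMP3 and MMP13 lie near the line of equal means, and MMP10, at 1.83 and 0.00, lies to its right.

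The comparison of MDA-MB-468 with control 4 was low for the array as a whole. Its median fold change over the 84 target genes was 0.528, against 1.12 and 1.28 with controls 2 and 3 of this line, and 1.29, 0.974 and 1.31 in MDA-MB-231. Only 25 of the 84 target genes were above 1 in it, where the other 5 comparisons had from 41 to 68. The 3 positive PCR control wells, which hold no sample transcript, had a mean of 0.436 in it, against 2.02 and 1.12 with controls 2 and 3. These wells too were divided by RPLP0, so their value moves with the reference gene as well as with amplification, and the 2 cannot be told apart. MMP7, MMP10 and MMP11 had their lowest values of this line in that comparison (0.568, 0.597 and 0.543), and so had MMP3 and MMP13 (2.33 and 2.47). Relative to the median of the 84 genes, MMP10 stood at 1.10, 1.05 and 1.13 in MDA-MB-468 and at 2.71, 3.41 and 2.97 in MDA-MB-231. On the same scale MMP7 stood at 0.922, 1.09 and 1.08 in MDA-MB-468 and at 1.54, 1.42 and 2.89 in MDA-MB-231. Read this way, MMP10 and MMP7 lay higher in each comparison of MDA-MB-231 than in any of MDA-MB-468. MMP13 stood at 5.27, 2.76 and 4.68 times the median in MDA-MB-468 and at 3.02, 2.71 and 3.58 times it in MDA-MB-231. The part of the low comparison in the spread of MDA-MB-468 was not tested, but the geometric means without it were 4.24 for MMP3, 4.57 for MMP13, 1.29 for MMP10, 1.20 for MMP7 and 1.14 for MMP11, each on the same side of the threshold as with it.

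**Figure D3:**
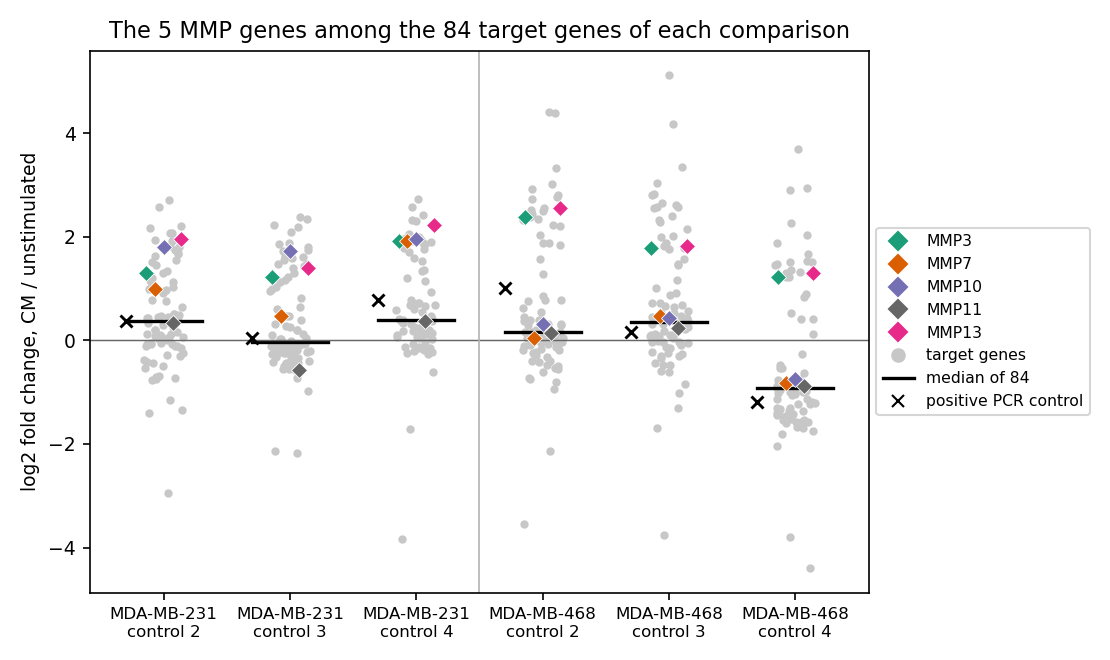
Log2 fold change of each of the 84 target genes (gray points) in the 6 comparisons, with the MMP genes as colored diamonds, the median of the 84 genes as a bar and the mean of the positive PCR control wells as a cross. In MDA-MB-468 with control 4 the median falls to -0.92, and MMP7, MMP10 and MMP11 lie on it while MMP3 and MMP13 stay above it.

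Differences between members inside a comparison do not depend on the reference gene, since it cancels. The log2 fold change of MMP10 minus that of MMP13 was -2.26, -1.39 and -2.05 in MDA-MB-468 with controls 2, 3 and 4, while it was -0.16, 0.33 and -0.27 in MDA-MB-231. The stromelysin pair parted in the same way. MMP3 lay above MMP10 by 2.07, 1.36 and 1.96 in MDA-MB-468, and its difference from MMP10 was -0.50, -0.51 and -0.04 in MDA-MB-231. As geometric means, the fold change of MMP3 was 3.48 times that of MMP10 in MDA-MB-468 and 0.785 times that of MMP10 in MDA-MB-231. MMP3 and MMP13 stayed close, the mean log2 difference of MMP3 minus MMP13 being -0.38 ± 0.25 (SD, n = 3 comparisons) in MDA-MB-231, and -0.10 ± 0.08 for MDA-MB-468. The difference that varied least between comparisons was that of MMP10 and MMP11 in MDA-MB-468, MMP10 being higher by 0.16 ± 0.03 (SD, n = 3), and the same genes were 1.78 ± 0.45 apart in MDA-MB-231. Of the 10 pairs of members, 6 had no overlap between the lines, near the share among all 3486 pairs of target genes (47.8%), and these 6 are the pairs of MMP7 or MMP10 with MMP3, MMP11 or MMP13. The other 4 pairs, MMP3 with MMP11, MMP3 with MMP13, MMP7 with MMP10, and MMP11 with MMP13, overlapped. Paired with each of the other 83 target genes in turn, MMP10 had no overlap between the lines in 91.6% of pairs, MMP7 in 59%, MMP3 in 44.6%, MMP11 in 33.7% and MMP13 in 31.3%. The pairs share genes and are not independent of each other.

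**Figure D4:**
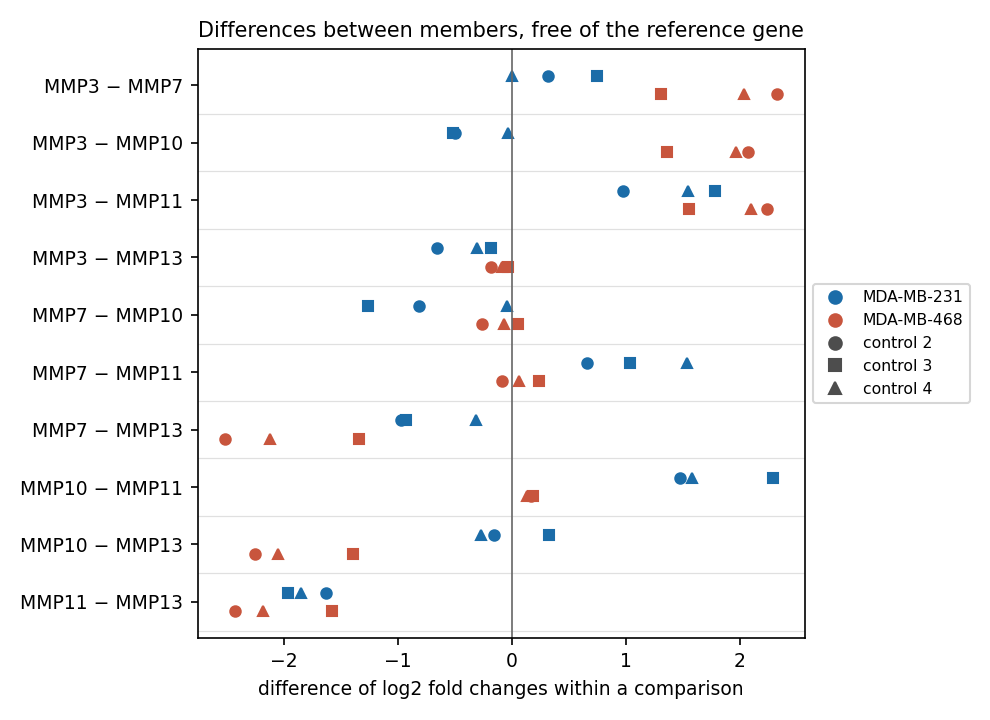
Difference of the log2 fold changes of each pair of MMP genes within a comparison (x axis), with 3 comparisons per line, the color giving the line and the shape the control. For MMP10 minus MMP13 the points of MDA-MB-468 lie between -2.26 and -1.39 and those of MDA-MB-231 between -0.27 and 0.33.

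The genes whose pattern over the 6 comparisons was nearest to each member were found by the Euclidean distance of log2 fold changes, which also does not depend on the reference. Nearest to MMP3 were ITGA7 (distance 0.601), MMP13 (0.775) and ITGB3 (0.928), where the median distance to the other 83 target genes was 4.28. Nearest to MMP13 were ITGA7 (0.772), MMP3 (0.775) and TNFSF10 (1.04). Nearest to MMP10 were CXCR2 (0.687), MMP7 (1.52) and SYK (1.69), with a median distance of 3.40. Nearest to MMP7 were CTSL (1.07), CDH1 (1.41) and MYCL (1.47), none of which was raised in MDA-MB-231. Nearest to MMP11 were MYC (0.469), CST7 (0.491) and MET (0.547), all with geometric means between 0.789 and 1.10.

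Of the gelatinases and TIMPs on the array, MMP2 and MMP9 were raised in both lines and none of the 3 TIMPs was called. TIMP2 lay below 1 in all 6 comparisons under the main reference genes, with a geometric mean of 0.825 for MDA-MB-231 and 0.797 for MDA-MB-468, and so did TIMP3, with 0.917 and 0.552. The highest value of TIMP2 was 0.997, and its side of 1 depends on the reference. In MDA-MB-468 with control 2, ACTB itself stood at 0.893, under TIMP2 at 0.931, so scaled to ACTB this value lies above 1. TIMP4 ranged from 1.12 to 1.73 in MDA-MB-231 and from 0.754 to 3.41 in MDA-MB-468. PLAUR, CTSK, CTSL, CST7 and HPSE also belong to extracellular proteolysis, and none of these 5 was called in either line, where 31% (MDA-MB-231) and 27.4% (MDA-MB-468) of the target genes were raised and 3.57% lowered. Their geometric means lay between 0.963 (CST7) and 1.56 (CTSL) for MDA-MB-231, and between 0.695 (CTSK) and 1.08 (PLAUR) for MDA-MB-468. The median log2 fold change of these 5 was 0.13 for MDA-MB-231 and -0.24 for MDA-MB-468, against 0.13 and -0.16 over the 84 target genes and 1.48 and 0.00 over the 5 MMP genes.

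Of 4 substrates or docking partners of these enzymes (FN1, COL4A2, CDH1 and CD44), MDA-MB-231 raised none and MDA-MB-468 raised 1, where 27.4% of the target genes were raised. That gene was FN1, the fibronectin cut by MMP3, MMP7 and MMP10, with 0.897 for MDA-MB-231 and 2.61 for MDA-MB-468, and its comparisons did not overlap between the lines. CD44, a docking protein of MMP7, had geometric means of 1.03 and 0.900. Of 5 known inducers of MMP genes (IL1B, HGF, TGFB1, VEGFA and ETV4), the same 3 were raised in each line, IL1B, HGF and VEGFA, beside 31% and 27.4% of the target genes. ETV4, a factor of the PEA3 family, had a geometric mean of 0.877 for MDA-MB-231 and 1.18 for MDA-MB-468.

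Of 9 genes that are also markers of macrophages (IL1B, CCL7, CXCR2, CXCR4, IL18, SYK, CST7, CTSK and MMP9), MDA-MB-231 raised 5, where 31% of the target genes were raised, and MDA-MB-468 raised 3, where 27.4% were. Their median log2 fold changes were 1.52 and 0.11, against 0.13 and -0.16 over the 84 target genes. CXCR2 and SYK were raised in MDA-MB-231 alone, as MMP7 and MMP10 were, while the means of IL18 (0.811) and CST7 (0.963) lay below 1 there. Summed levels cannot be formed from ratios, and the part of macrophage RNA in the MMP values was not tested. The labelled lines could likewise be checked only through ratios. CDKN2A, which MDA-MB-231 lacks, had the value of the reverse transcription control wells within 0.001 on the log2 scale in 2 of the 3 comparisons of this line. Its fold changes in MDA-MB-231 were 1.19, 2.47 and 1.72 with controls 2, 3 and 4 (geometric mean 1.72), and it was not called raised. With control 3 the reverse transcription control wells stood at 1.38. A gene absent from the line thus passed 2 in 1 comparison, a limit on reading single fold changes here. In MDA-MB-468 the fold changes of CDKN2A were 0.986, 1.07 and 0.496 with controls 2, 3 and 4 (geometric mean 0.807), so it was not raised there. RB1, which MDA-MB-468 lacks, had a geometric mean of 0.0672 in MDA-MB-468, a fall measured in a gene absent from the line, and SMAD4, which it also lacks, had 0.172. SMAD4 was lowered to 0.127 in MDA-MB-231 as well, so it does not set the lines apart. CDH1, a marker known to be present in MDA-MB-468 and low in MDA-MB-231, was called in neither line. Its geometric mean was 1.39 in MDA-MB-468 (from 0.696 to 2.26) and 1.51 in MDA-MB-231. Which line the unstimulated samples behind the values of MDA-MB-468 came from was not tested. The fold changes of the MMP genes in MDA-MB-468 rest on the same unstimulated samples and carry the same limit.

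**Figure D5:**
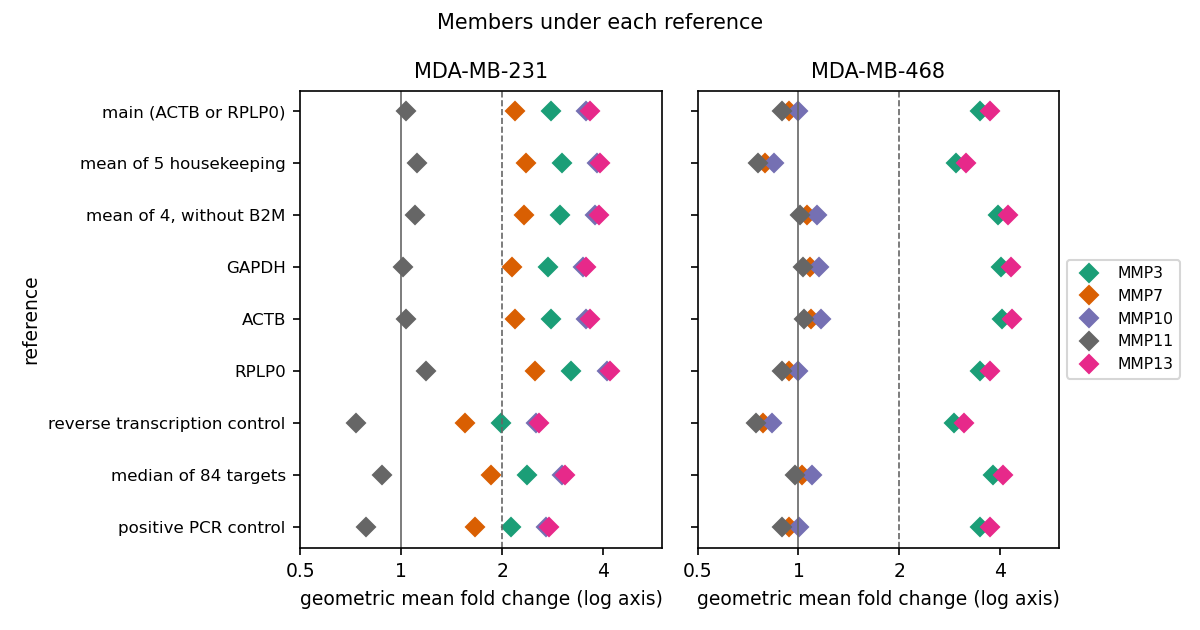
Geometric mean fold change (log axis) of each MMP gene in both lines under the main reference and 8 alternatives, the dashed line marking 2. MMP10 and MMP13 stay above 2 in MDA-MB-231 under all 9, MMP7 falls under 2 with 3 of them and MMP3 with the reverse transcription control wells (1.98), and no member of MDA-MB-468 changes its side of 2.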

How the data were processed

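RNA of 15 samples was measured on the array. The authors deposited fold changes, linear ratios (2 to the power of -ΔΔCt) of CM over unstimulated cells, normalized by them with GeneGlobe to 5 housekeeping genes. The 6 numbered columns were used, and the 2 unnumbered ones were checked to be geometric means of 3. Wells were paired with symbols through the study's supplementary table. Another 16 columns of threshold cycles, whose names match no label, were not used here, so the limma fit on single samples and its interaction term were not run. Each ratio was divided by ACTB or RPLP0, the genes which the supplementary table sets to 1, and log2 values were averaged. The members and gene lists, including 3 genes nearest to each member, were chosen with earlier results of these data known. Part of the lists is not reported here. Alternatives were 6 planned references, 2 references added after seeing the data, a stricter rule and leaving out each comparison. Promoters are RefSeq's. Python 3.11.15, numpy 2.4.6, pandas 2.3.3 and matplotlib 3.10.9 were used.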

Additional observations from a re-analysis of the deposited data

Results flagged for a closer look

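SYK and CTSK, from the list of macrophage markers and, for CTSK, of extracellular proteolysis, lay above 1 in all 3 comparisons of MDA-MB-231, whereas all 3 of MDA-MB-468 were below 1 with the main reference genes. This held under 8 of 8 alternative references for SYK and under 3 of 8 for CTSK. The mean log2 fold change in MDA-MB-468 minus that in MDA-MB-231 was -2.40 for SYK and -0.95 for CTSK. SYK was also among the 3 genes nearest to MMP10. The difference between the lines was not tested. None of the 5 MMP genes moved in opposite directions in every comparison of the lines.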

How the results depend on the processing

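Under the 6 planned references, the 2 references (the positive PCR control wells and the median target gene of the 84) added after seeing the data and each comparison left out, MMP10 and MMP13 in MDA-MB-231 and MMP3 and MMP13 in MDA-MB-468 were raised in 11 of 11 settings. For each line 1 planned reference is the main one itself. MMP3 in MDA-MB-231 was raised in 10, the exception being the reverse transcription control wells (1.98). MMP7 in MDA-MB-231 was raised in 7, and fell short without control 4 and with the reverse transcription control wells, the median of the 84 genes and the positive PCR control wells. MMP10 did not overlap between the lines in 14 of 14 settings, while MMP7 overlapped in 7 of 14.

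With the reverse transcription control wells, MDA-MB-231 had 2 members and 16 target genes raised, and MDA-MB-468 had 12 target genes lowered. With the mean of 5 housekeeping genes, which B2M shifts by construction, MDA-MB-468 had 11 lowered. With a fold change under 0.5 in each comparison, 1 was lowered in MDA-MB-231. Members without overlap, 1 in the main setting, numbered 2 with the mean of 5 or of 4 housekeeping genes, RPLP0, the reverse transcription control wells or the median of the 84 genes, and 3 with the positive PCR control wells. Target genes without overlap, 20 in the main setting, numbered 33 with the mean of 5 housekeeping genes and 35 with the median of the 84 genes. Other causes were not tested.

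Leaving out 1 comparison, target genes lowered in MDA-MB-468 ranged from 2 to 10 (9 without control 2, 10 without control 3), members without overlap from 1 to 3 (3 without control 3 of MDA-MB-231, 2 without control 3 of MDA-MB-468) and target genes without overlap from 22 to 39 (32 without control 3 of MDA-MB-231, 39 without control 4 of MDA-MB-468). No paired analysis was possible because the results come from no test, each ratio already sets CM against 1 control, and the columns of single samples carry names that match no label. The methods' t-test, other ceilings for undetected wells and levels in threshold cycles were not run, because they need the columns of single samples. With 3 comparisons per line, their number limits the precision.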
